A study of Mus musculus with 18 samples.

Results

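*Pou5f1*, *Sox2*, *Nanog* and *Sall4* encode transcription factors at the core of the pluripotency network, and these 4 genes were chosen by name from the 18659 genes of the deposited expression table. They were followed through 16 RNA-seq libraries of serum-grown mouse embryonic stem cells (mESCs, male E14 line, on gelatin with LIF) in which *Stag1*, a cohesin subunit, had been knocked down with siRNA for 24 h. SP is a commercial SmartPool to *Stag1*, 3p a pool of commercial siRNAs to the 3′ end of the transcript, 5p a custom duplex of 1 sequence (per the methods; the labels call it a pool) to the 5′ end, and SATS an enzymatically prepared pool to an alternative upstream first exon of *Stag1*. By the endings of the catalogue numbers in the methods, the siRNAs of 3p are also in the SP pool. Likeness between SP and 3p is therefore not that of independent reagents. Controls were scrambled siRNA (scr), luciferase siRNA and untreated cells. The libraries form 3 replicate sets. Set 1 consisted of 1 scr library and the SP libraries 1a, 1b and 1c. Set 2 had scr, untreated cells, SP, 3p, 5p and SATS and set 3 had scr, luciferase, SP, 3p, 5p and SATS, with 1 library per condition. Each library was set against scr of its own set, and 2 libraries from 2i medium were not used here. The RNA was bulk RNA, so fewer cells expressing a gene and less RNA of it per cell cannot be told apart.

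OCT4 (the product of *Pou5f1*) and SOX2 bind DNA together at a composite element made of a SOX site beside an octamer, and this pair activates many genes of the undifferentiated state, their own genes included. NANOG, a homeodomain protein, and SALL4, a zinc finger protein, bind many of the same enhancers, and NANOG in particular varies between single cells grown in serum. Loss of OCT4 sends mESCs towards trophectoderm, and cells with low NANOG are prone to form primitive endoderm.

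Promoter sequence is shown for the members because the composite OCT4 and SOX2 element lies in 1 of these windows. RefSeq promoter windows on GRCm38.p6 matched 3 of the 4 members, and *Sall4* was the exception. Given are the 250 bases before the RefSeq start site nearest the annotated gene start, 5′ to 3′ on the plus strand, which is the coding strand of all 3 genes: chr6:122707239-122707488 for *Nanog*, chr3:34649745-34649994 for *Sox2* and chr17:35505782-35506031 for *Pou5f1*. Capitals mark ATGCAAA, the octamer core, and CATTGT, the SOX core, on either strand.
Nanog: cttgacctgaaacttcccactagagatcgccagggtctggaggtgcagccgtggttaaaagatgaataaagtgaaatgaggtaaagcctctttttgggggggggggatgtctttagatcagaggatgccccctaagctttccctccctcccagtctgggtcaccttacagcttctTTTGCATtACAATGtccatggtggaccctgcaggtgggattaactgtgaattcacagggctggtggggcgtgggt
Sox2: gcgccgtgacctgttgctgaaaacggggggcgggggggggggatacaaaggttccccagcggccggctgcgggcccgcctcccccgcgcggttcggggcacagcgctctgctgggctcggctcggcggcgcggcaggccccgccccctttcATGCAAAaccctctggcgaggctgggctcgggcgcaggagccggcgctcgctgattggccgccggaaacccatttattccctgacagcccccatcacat
Pou5f1: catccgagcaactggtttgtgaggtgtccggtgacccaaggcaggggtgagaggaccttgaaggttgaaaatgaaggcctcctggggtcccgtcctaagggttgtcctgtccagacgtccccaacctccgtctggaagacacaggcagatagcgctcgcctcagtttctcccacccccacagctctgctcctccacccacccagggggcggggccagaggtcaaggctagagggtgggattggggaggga
The *Nanog* window held both cores on the opposite strand, 1 base apart, between 75 and 62 bases before the start site. The *Sox2* window held an octamer core 99 to 93 bases before its start site and no SOX core, and the *Pou5f1* window held neither. Of 32536 distinct windows of this length, 4.15% held the octamer core and 10.5% the SOX core, while the pair in the spacing of *Nanog* occurred in 2 windows (0.00615%), both of them overlapping windows of *Nanog* itself. These are letter matches and not measurements of binding.

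In the GENCODE M21 annotation of GRCm38, *Nanog* spans chr6:122707489-122714633, *Pou5f1* chr17:35506018-35510772 and *Sox2* chr3:34650405-34652461, all on the plus strand, and *Sall4* spans chr2:168748332-168767943 on the minus strand. *Sox2* lies inside the long noncoding gene *Sox2ot* on the same strand, and their exons share 0 bases. *Sox2ot* had a normalised value of 9.143 to 48.32 in the 16 libraries, against 2191 to 7232 for *Sox2*. The pseudogenes *Nanog-ps1* and *Nanog-ps2* were not rows of the table, so reads that fit them and *Nanog* equally well could not be followed.

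The depth differed between sets. Set 1 held 9023224 to 14040830 reads on genes, of which 69.2% to 79.1% fell on the ribosomal precursor *Rn45s*, while the 12 libraries of sets 2 and 3 held 32137666 to 45660840 reads with 14.7% to 23.9% on *Rn45s*. *Lars2*, which encodes a mitochondrial tRNA synthetase, had a normalised value of 1664000 to 2859000 in set 1 and of 356.9 to 3559 in sets 2 and 3. The sources used here do not say whether set 1 was prepared or sequenced differently, and the part of this in the *Nanog* values of set 1 was not tested. The members were deeply covered all the same, with 318 reads for *Nanog* in SP 1c as the lowest count of any member and 25459 reads for *Pou5f1* in SATS of set 3 as the highest. *Stag1* itself was at 17.3% to 32.8% of scr in all SP, 3p and 5p libraries and at 50.5% and 49.7% of scr with SATS in sets 2 and 3, so the library labels and the targeted gene go together. Among markers of other cell types, the summed normalised value of 8 trophectoderm genes was 629.9 to 3970 in set 1, 23330 to 32320 in set 2 and 5927 to 12290 in set 3, with *Krt8* and *Krt18* the most abundant in sets 2 and 3. SP 1c held the 3970. Within set 2 the controls had 25140 and 26690 and the knockdowns 23330 to 32320, and within set 3 the controls had 8132 and 8300 and the knockdowns 5927 to 12290. In scr of set 1, *Cdx2* and *Elf5* were at 0 reads. The sum of 7 primitive endoderm genes lay between 170.5 and 589.3 in every library. That of 9 fibroblast genes was 160.8 to 781.2 in set 1, 6321 to 11520 in set 2 and 799 to 1631 in set 3. *Lum* was at 0 reads in all 4 libraries of set 1 and in both controls of set 3. The trophectoderm and fibroblast sums of set 2 lay above all those of the other sets, and their part in the values below was not tested.

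*Pou5f1* had the highest level of the 4 members per kilobase of exon in all 16 libraries, with a normalised value (reads divided by the library's size factor) of 3171 to 5311 per kilobase. *Sox2* had 1065 to 3516 (median 1602.5), *Sall4* 1330 to 1635 (median 1511.3) and *Nanog* 897 to 2596 (median 1287.2) per kilobase. In the 3 scr libraries alone these levels were 3357 to 5023 for *Pou5f1*, 1313 to 3516 for *Sox2*, 1070 to 2596 for *Nanog* and 1499 to 1635 for *Sall4*, so the last 3 overlapped and their order changed between sets. *Sall4* was the lowest member in 4 of 16 libraries by exon length and in 12 of 16 by coding length, which left *Pou5f1* first in all 16. By exon length *Nanog* was the lowest in most of the other libraries.

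**Figure D1:**
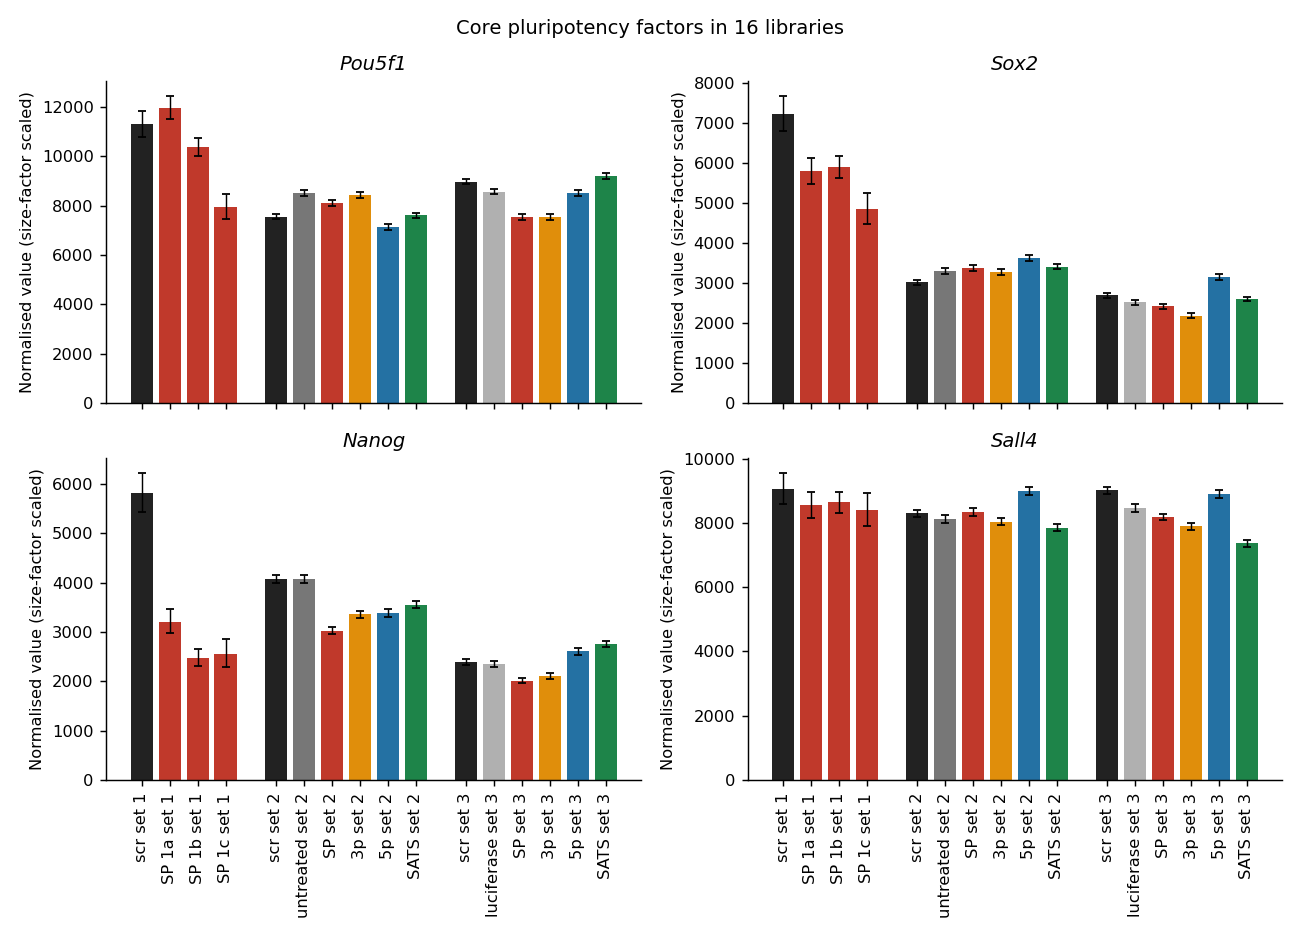
Normalised value (reads divided by the size factor, y axis from 0) of each member in the 16 libraries, grouped by set, with bars coloured by siRNA and error bars giving the 95% Poisson interval of the reads. *Nanog* was at 5819 in scr of set 1 and at 2480 to 3206 in the 3 SP libraries beside it, while *Sall4* stayed between 7364 and 9054 in all libraries.

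*Nanog* had the largest change of the members in SP, and it was lower than scr. In set 1 its normalised value was 5819 in scr and 3206, 2480 and 2561 in SP 1a, 1b and 1c. In set 2 it was 4069 in scr, 4075 in untreated cells and 3023 in SP. In set 3 it was 2400 in scr, 2347 with luciferase siRNA and 2011 in SP. All 5 SP libraries thus lay below scr of their own set, at 55.1%, 42.6% and 44.0% in set 1, at 74.3% in set 2 and at 83.8% in set 3, and in all 5 the 95% counting interval of the percentage stayed below 100. The 2 other controls, untreated and luciferase, were at 100.1% and 97.8% of scr with intervals that held 100. Over sets, *Nanog* in SP was at 68.4% ± 18.96 of scr (SD, n = 3, the 3 SP libraries of set 1 averaged first). Without set 1 it was at 79.0% ± 6.70 (SD, n = 2). The scr libraries themselves ranged from 2400 to 5819, so the groups overlapped when the sets were ignored.

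SP against scr over 3 sets gave a log2 fold change of -0.59 for *Nanog*, with an SE of 0.328 and an adjusted p of 1 when the set was not in the model (limma, Benjamini-Hochberg over 15970 genes). With the set as a block the SE was 0.155 and the 95% interval -0.96 to -0.22, and the unadjusted p was 0.00787, but the adjusted p was 0.759. limma called 0 of 15970 genes (0%) in either fit of SP over 3 sets, with 84 genes at an unadjusted p under 0.05 without the block and 935 with it. The count model of edgeR with the block called 66 genes (0.413%), and *Nanog* was among them with a log2 fold change of -0.57 and an adjusted p of 0.0189. DESeq2 with the block called 50 genes and gave *Nanog* an adjusted p of 0.0584. Without set 1, limma with the block put the log2 fold change of *Nanog* at -0.34 and the adjusted p at 0.00847. That fit held only 2 scr and 2 SP libraries and called 509 genes, where the fit over 3 sets called 0. The joint fit of all 5 siRNAs in sets 2 and 3 gave the same -0.34 with an adjusted p of 0.138. The call on *Nanog* in SP therefore depended on the test, while its direction was the same in all 3 sets.

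The other knockdowns moved *Nanog* less evenly. With 3p it was at 3356 in set 2 and 2116 in set 3, or 82.5% and 88.2% of scr, below scr in both sets. With 5p it was at 3388 and 2610, or 83.2% and 108.8%. With SATS it was at 3552 and 2748, or 87.3% and 114.5%. In set 2 all 4 knockdowns lay below scr and in set 3 SP and 3p lay below while 5p and SATS lay above, so 5p and SATS had no common direction over the sets. The log2 fold changes against scr were -0.23 for 3p, -0.07 for 5p and -0.00034 for SATS, with an SE of 0.336 without the block and of 0.0952 with it, and none passed the test (adjusted p of 0.417, 0.774 and 0.999 with the block).

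**Figure D2:**
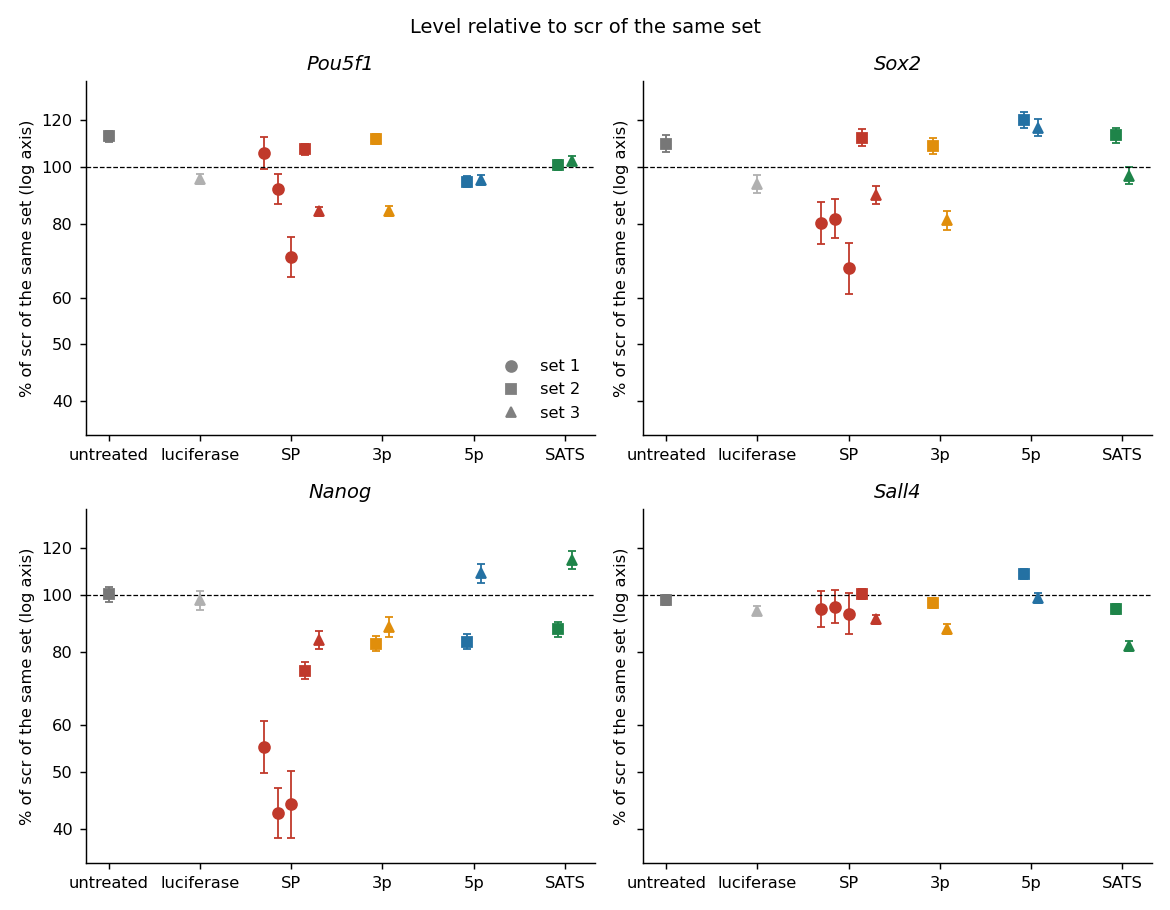
Level of each member in percent of scr of the same set (log axis), by siRNA or control, with symbols for the set and bars for the 95% counting interval. *Nanog* lay between 42.6% and 83.8% in the 5 SP libraries, and *Sox2* at 120.2% and 116.7% in the 2 libraries of 5p.

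*Sox2*, the partner of OCT4 on DNA, had a normalised value of 7232 in scr of set 1 and of 5810, 5905 and 4864 in SP 1a, 1b and 1c. In set 2 it was 3022 in scr, 3312 in untreated cells, 3392 in SP, 3281 in 3p, 3634 in 5p and 3420 in SATS. In set 3 it was 2701 in scr, 2531 with luciferase siRNA, 2423 in SP, 2191 in 3p, 3152 in 5p and 2610 in SATS. SP was below scr in sets 1 and 3 (67.3% to 81.6% and 89.7%) and above it in set 2 (112.2%). The scr library of set 2 was the lowest of its set, untreated cells included, so every other library there exceeded 100%. With 5p, *Sox2* was at 120.2% and 116.7% of scr, the highest level among the 6 libraries of both sets 2 and 3. The log2 fold change of 5p against scr was 0.24 (SE 0.24 without the block and 0.0965 with it, adjusted p of 1 and 0.229), and that of 5p against 3p was 0.34 (adjusted p of 1 and 0.0826). Neither passed the limma test. Leaving out the 3p library of set 2 put the second at 0.47 with the block, with 1 library of 3p remaining. Over all fits with 1 library left out, with and without the block, it ran from 0.045 to 0.63.

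*Pou5f1*, which encodes OCT4, was not called by limma in any knockdown. In set 1 it was at 11290 in scr and at 11940, 10359 and 7941 in SP 1a, 1b and 1c. In set 2 it was 7545 in scr, 8503 in untreated cells, 8088 in SP, 8419 in 3p, 7128 in 5p and 7611 in SATS. In set 3 it was 8967 in scr, 8567 with luciferase siRNA, 7536 in SP, 7546 in 3p, 8509 in 5p and 9193 in SATS. SP and 3p stood above scr in set 2 (107.2% and 111.6%) and below it in set 3 (84.0% and 84.2%), while untreated cells of set 2 were at 112.7%. 5p was at 94.5% and 94.9% of scr, with counting intervals of 92.4 to 96.5 and 93.1 to 96.8, and lay below both controls of each set. Its log2 fold change was -0.08 (SE 0.108 and adjusted p 0.781 with the block). SATS was at 100.9% and 102.5%. The log2 fold changes against scr in sets 2 and 3 ran from -0.08 to 0.02 with an SE of 0.108 under the block, and the 95% interval of the SP estimate was -0.31 to 0.16.

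*Sall4* had the smallest spread of normalised values over all 16 libraries, the highest being 1.23 times the lowest. Against scr, its knockdowns in sets 2 and 3 ran from 81.7% to 108.3%, beside 84.0% to 111.6% for *Pou5f1*. In set 1 *Sall4* was at 9054 in scr and at 8551, 8638 and 8408 in SP 1a, 1b and 1c, with counting intervals that held 100% of scr in all 3. In set 2 it was 8297 in scr, 8117 in untreated cells, 8325 in SP, 8037 in 3p, 8989 in 5p and 7856 in SATS. In set 3 it was 9013 in scr, 8471 with luciferase siRNA, 8182 in SP, 7894 in 3p, 8911 in 5p and 7364 in SATS. SATS was the lowest library of both sets, at 94.7% and 81.7% of scr, and 5p the highest library of set 2 and the highest knockdown of set 3, at 108.3% and 98.9%. SATS against scr gave a log2 fold change of -0.19 (SE 0.0861 without the block and 0.077 with it), with an adjusted p of 1 and 0.21, so it did not pass the test.

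**Figure D3:**
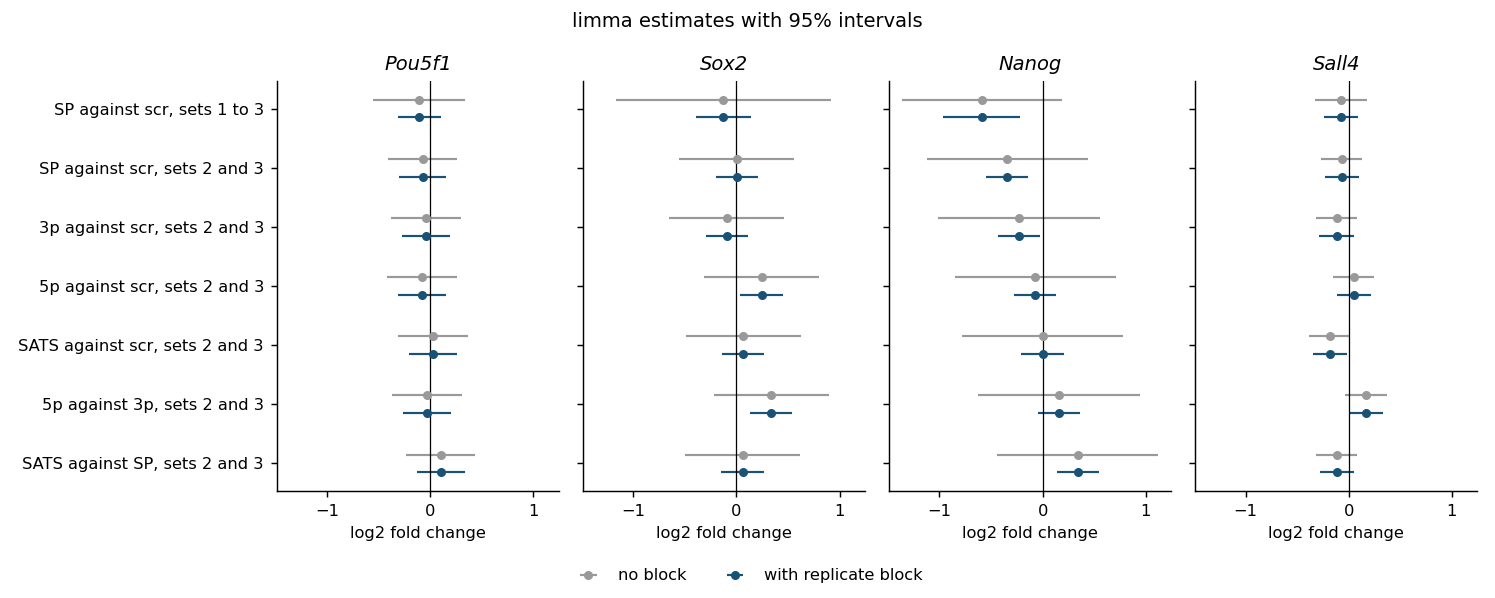
Log2 fold change (x axis) of each member in 7 comparisons with its 95% interval from limma, in grey without and in blue with the replicate set as a block. With the block, the intervals of *Nanog* in SP against scr lay below 0 (-0.96 to -0.22 over 3 sets) and that in SATS against SP above 0 (0.14 to 0.55).

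Across the members, limma without the block called 0 of 16 tests of a member (4 knockdowns against scr in sets 2 and 3), and 0 of the 16 had an unadjusted p under 0.05. The same fit called 0.00606% of all 16490 genes in SP, 0.00606% in 3p, 0.0121% in 5p and 0% in SATS. With the block, limma called 0.746%, 0.285%, 2.37% and 2.64% of all genes in SP, 3p, 5p and SATS, and again 0 of the 16 member tests, as did edgeR and DESeq2 with the block. The unadjusted p was under 0.05 in 4 of the 16, which were *Nanog* in SP and 3p, *Sox2* in 5p and *Sall4* in SATS, and edgeR and DESeq2 gave the same 4. In these comparisons 10.4% to 18.8% of all genes reached that level by limma, 10.4% to 19.2% by edgeR and 6.79% to 14.5% by DESeq2. All 8 knockdown libraries of sets 2 and 3 against their 4 controls called 0% of 16684 genes without the block and 0.204% with it, and 0 of the 4 members in either fit or by edgeR or DESeq2, with 0 members at an unadjusted p under 0.05 in each.

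The siRNAs were also set against each other in sets 2 and 3, where all were measured side by side. Of the 6 pairs, 5p against 3p had been planned and the other 5 were added after the values of the members had been seen. With the block, 1 of 24 member tests passed: *Nanog* was higher in SATS than in SP, with a log2 difference of 0.34, an SE of 0.0952 and an adjusted p of 0.0394 by limma. Its values were 3552 against 3023 in set 2 and 2748 against 2011 in set 3. edgeR and DESeq2 with the block gave adjusted p of 0.032 and 0.014, and limma without the block gave 0.974. This pair called 9.42% of all genes by limma and 10.0% by edgeR, so a call in it was not rare. Left out in turn with the block, 3 libraries ended the call, with a log2 difference of 0.36 and an adjusted p of 0.152 without SP of set 2, 0.32 and 0.205 without SP of set 3, and 0.23 and 0.391 without SATS of set 3. Over all fits with 1 library left out, with and without the block, the difference ran from 0.047 to 0.64. Scaling to reads outside *Rn45s* with the block ended it too (log2 difference of 0.31, adjusted p 0.0566). The shares of all genes called in the remaining pairs were 3.26% for 5p against 3p (0% without the block), 0.0970% for 3p against SP, 5.76% for 5p against SP, 3.06% for SATS against 3p and 6.42% for SATS against 5p. Among the tests that missed, the *Sox2* difference between 5p and 3p came nearest (adjusted p 0.0826 with the block), followed by *Sall4* in SATS against 5p, at a log2 difference of -0.23 with an adjusted p of 0.0904 with the block and of 0.896 without it. For 3p against SP the 95% interval with the block was -0.09 to 0.32 for *Nanog* and -0.30 to 0.11 for *Sox2*, so differences of that size remain possible.

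Ratios of reads within 1 library are free of the scaling between libraries. *Nanog* had 0.5154 reads per *Pou5f1* read in scr of set 1 and 0.2685, 0.2394 and 0.3225 in SP 1a, 1b and 1c. In set 2 the ratio was 0.5393 in scr, 0.4793 in untreated cells, 0.3738 in SP, 0.3986 in 3p, 0.4753 in 5p and 0.4667 in SATS. In set 3 all 6 libraries lay between 0.2668 and 0.3068, with scr at 0.2676 and SP at 0.2668. *Nanog* thus dropped relative to *Pou5f1* under SP in sets 1 and 2 and kept the ratio of scr in set 3, where both genes were lower in SP. *Sox2* per *Pou5f1* read was 0.4006 in scr and 0.5099 in 5p of set 2, and 0.3012 in scr and 0.3704 in 5p of set 3, the highest ratio of either set.

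**Figure D4:**
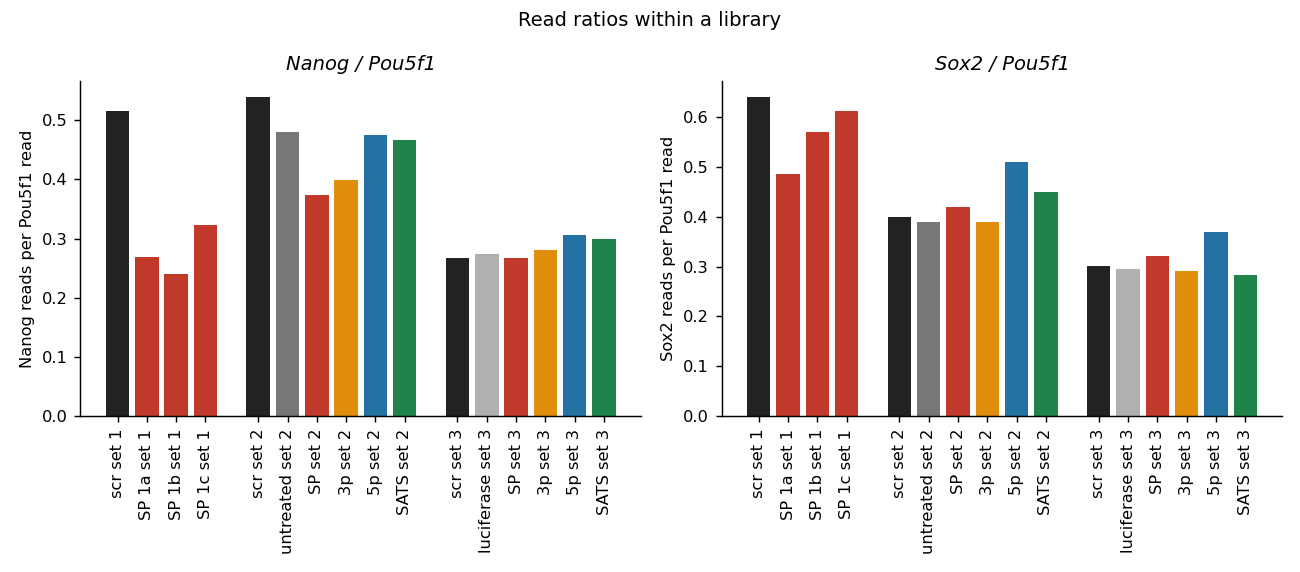
Reads of *Nanog* (left) and of *Sox2* (right) per read of *Pou5f1* in each of the 16 libraries, grouped by set and coloured by siRNA, with the y axis from 0. *Nanog* per *Pou5f1* read was 0.5154 in scr of set 1 and at most 0.3225 in SP of that set, and *Sox2* per *Pou5f1* read was highest with 5p in sets 2 and 3.

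Genes whose log2 ratios to scr of the same set ran most like those of a member were sought over the 10 such ratios of sets 2 and 3, among 8198 genes whose mean value reached 200. The ratios share 2 scr libraries, so the correlations are descriptions. For *Nanog* these were *Ppap2c* (Pearson r of 0.966), *Dnajc15* (0.944) and *Tbc1d10a* (0.918), and *Ppap2c* stayed first over the 13 ratios of all sets (0.98). For *Pou5f1* they were *Mycn* (0.977), *Dctpp1* (0.971) and *N4bp3* (0.965), and only *N4bp3* was still among the first 3 over 13 ratios (0.951), *Mycn* being at -0.0143 there. *Sox2* had *Ybx3* (0.974), *Hnrnpa0* (0.932) and *Ctbp2* (0.93), and *Sall4* had *Parvb* (0.97), its paralogue *Sall1* (0.964) and *Rfng* (0.941), none of which was among the first 3 over 13 ratios. Between members, r over the 10 ratios was 0.758 for *Sox2* and *Sall4*, 0.604 for *Pou5f1* and *Sox2*, 0.25 for *Pou5f1* and *Sall4*, 0.0368 for *Pou5f1* and *Nanog*, -0.0923 for *Sox2* and *Nanog* and -0.457 for *Nanog* and *Sall4*. Over the 13 ratios, with set 1 included, the same pairs had 0.52, 0.668, 0.223, 0.421, 0.672 and -0.13 in that order. The values of the pairs with *Nanog* thus depended on whether set 1 was in.

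Of 11 transcription factors that work with the members in serum-grown or naive mESCs, 2 fell in SP against scr with the block in sets 2 and 3. *Tfcp2l1*, a factor of the naive state, had a log2 fold change of -0.50 (SE 0.0867, adjusted p 0.019 by limma), and *Tbx3* of -0.52 (SE 0.109, adjusted p 0.0477). *Tfcp2l1* had values of 5401 in scr and 3979 in SP of set 2, and of 3096 and 2117 in set 3. The median over the 11 factors was -0.38, with 1 of 11 above 0, beside 50% of all genes above 0. In SATS the same 2 factors fell, *Tfcp2l1* by 0.58 and *Tbx3* by 0.52 on the log2 scale (adjusted p of 0.0131 and 0.0297), with a median of -0.28. In 3p and 5p 0 of 11 were called (medians -0.38 and -0.15), and *Tfcp2l1* came nearest in both with log2 fold changes of -0.39 and -0.32 (adjusted p of 0.0834 and 0.0718). Over 3 sets, SP gave a median of -0.61 with 0 of 11 above 0 and 0 called, beside 52.8% of all genes above 0, and *Esrrb* had the lowest adjusted p among them at 0.759 with a log2 fold change of -0.65. These comparisons share their scr libraries. Between 5p and 3p, *Nr0b1* and *Nr5a2*, nuclear receptors of the network, were higher in 5p by log2 differences of 0.72 and 0.46 (adjusted p of 0.0277 and 0.0165). All 11 factors were above 0 there, beside 53.2% of all genes. The same held for 5p against SP, with all 11 above 0 beside 52% of all genes.

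Among 17 targets of OCT4 and SOX2, *Lefty1*, an inhibitor of Nodal signalling, rose in SP, 5p and SATS by log2 fold changes of 0.63, 0.65 and 0.48 (limma with the block, adjusted p of 0.0115, 0.00469 and 0.0313). In 3p it was not called but was also higher, at 417.7 against 311.2 in scr of set 2 and at 1935 against 1349 in set 3. In set 1, outside that fit, *Lefty1* stood the other way, at 1400 in scr and at 306, 360 and 1208 in SP 1a, 1b and 1c (rounded). *Fgf4*, a growth factor gene with a classical OCT4 and SOX2 element, fell in 3p by 0.88 on the log2 scale (SE 0.123, adjusted p 0.00937), with values of 1505 in scr and 981 in 3p of set 2 and of 1477 and 672 in set 3. It was also lower than scr, but not called, in SP (1128 in set 2 and 910 in set 3) and in SATS (1220 and 1133). In 5p it had values of 1523 and 1668, and 5p against 3p gave a log2 difference of 0.97 (adjusted p 0.00088). *Lin28a*, which encodes an RNA-binding protein, fell in 5p by 0.68 (adjusted p 0.00113), with values of 8704 in scr and 5997 in 5p of set 2 and of 9992 and 5629 in set 3. *Dppa3* rose in SATS by 0.75 (adjusted p 0.019). In all, 1 rose in SP, 1 fell in 3p, 1 rose and 1 fell in 5p, and 2 rose in SATS, out of 17 in each, with medians of -0.04, -0.11, 0.12 and 0.02. Over 3 sets 0 of 17 were called in SP against scr by limma, and *Fgf4* had the lowest adjusted p at 0.416 with a log2 fold change of -0.64.

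Of 27 genes of the NuRD complex and other protein partners, 0 were called in SP or 3p by limma with the block, and 1 fell in 5p (*Arid3a*, by 0.38, adjusted p 0.0486) and 1 in SATS (*Tet1*, by 0.38, adjusted p 0.0426), with medians between -0.10 and 0.01 in the 4 knockdowns. *Tet2* had the lowest adjusted p in SP and in 3p, at 0.163 and 0.0946. Of 13 family relatives, *Sox4* rose in SP by a log2 fold change of 0.42 (adjusted p 0.0411) and *Sox21* in 5p by 0.57 (adjusted p 0.0404), and *Sall1* in SATS had -0.33 with an adjusted p of 0.061, beside the -0.19 of *Sall4* there. The 7 primitive endoderm genes had 0 calls in any of the 4 knockdowns in sets 2 and 3, with medians of 0.30, 0.20, 0.40 and 0.07 and 5, 6, 6 and 4 of 7 above 0 in SP, 3p, 5p and SATS, beside 50%, 49%, 52.5% and 49.3% of all genes. Over 3 sets, SP gave them a median of -0.26 with 2 of 7 above 0. Some of these genes had few reads. *Sox17* had values of 2.822 to 8.327 in sets 2 and 3, where 1 read was worth at most 0.479. In SP 1c *Sox17* was at 0, and *Gata6* and *Pdgfra* were each at 8.053, the worth of 1 read there. The medians of this list therefore rest in part on few reads. Of the trophectoderm genes, 7 of 8 passed the filter on low values, and *Tfap2c* fell in 5p by 0.42 (adjusted p 0.0199) and *Krt8* rose in SATS by 0.54 (adjusted p 0.0374). The trophectoderm medians were -0.24, -0.06, -0.26 and -0.04 in the same order, with 1, 2, 1 and 3 of 7 above 0, so *Krt8* stood against most of its list in SATS. *Krt18* was also higher in SATS but not called, at 12770 against 11570 in scr of set 2 and at 4533 against 3148 in set 3. Of 8 fibroblast genes tested, *Col1a1* fell in 5p by 0.75 (adjusted p 0.0255) and *Acta2* rose in SATS by 0.76 (adjusted p 0.00197). The controls of both genes differed, and untreated and luciferase libraries were not in that fit. *Col1a1* was at 2223 in scr, 4627 in untreated cells and 1849 in 5p of set 2. In set 3 it was at 366.9 in scr, 241.7 with luciferase siRNA and 154.5 in 5p. *Acta2* was at 3956 in scr, 5701 in untreated cells and 6951 in SATS of set 2. In set 3 it was at 649.4 in scr, 392.2 with luciferase siRNA and 1067 in SATS. The fibroblast medians were -0.24, -0.18, 0.06 and 0.06, with 1, 2, 6 and 4 of 8 above 0, so *Col1a1* stood against most of its list in 5p.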

How the data were processed

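RNA was depleted of rRNA and made into libraries with a directional kit. Reads had been mapped to mm10 (HISAT2) and assigned to genes (featureCounts), and the authors divided each count by DESeq2 size factors (DESeq2 1.14.1, per the submitters' processing notes), so the deposited values are a normalised signal in which 1 read is worth the same for every gene of a library. All values (100%) came out as whole reads within 0.01, and the count models ran on those reads. A second deposited table, with CPM of set 1 alone, was not used.

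log2(value + 1) was fitted with limma 3.58.1 in R 4.3.3 (trend, two-sided, genes summing to 10 or more over the fitted libraries), adjusted by Benjamini-Hochberg over all genes and called at an adjusted p under 0.05. On this scale fold changes of low genes are understated. SP was compared with scr over 3 sets, and all siRNAs over the 10 libraries of sets 2 and 3. Members of 1 set deviated together (correlation of deviations from the group means 0.77 to 0.82 over 11057 genes for SP and scr, and 0.81 to 0.93 over 11019 genes in sets 2 and 3), so the set numbers, taken from the labels, were treated as pairing and fits with the set as a block are given as well. The labels do not say whether sets are separate cultures, so p-values cover the spread between these samples. edgeR 4.0.16, DESeq2 1.42.0, other scalings, pseudocounts, filters and left-out libraries were alternatives. Intervals on percentages and values are exact at 95% and cover counting error only.

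The members and gene lists were chosen with earlier results of these data known. Named besides the members and *Stag1* were, per list and comparison, at most 3 called genes with the largest change under the block, or the gene with the lowest adjusted p, and for each member the 3 genes most like it. Not all genes that this rule allows are named.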

Additional observations from a re-analysis of the deposited data

How the results depend on the processing

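Without the replicate block no alternative called a member. With the block, *Nanog* in SP over 3 sets was called by edgeR (-0.5664), and in SP of sets 2 and 3 once untreated and luciferase libraries joined scr (-0.3343, adjusted p 0.0423). *Sall4* in SATS against 5p was called with scaling to reads outside *Rn45s* and the block (-0.29, adjusted p 0.0351). Alternatives that pair the block with another scaling, with left-out libraries or with added controls were chosen after seeing the data. Apart from *Nanog* in SP with set 1 left out, given below, the block (the replicate set) changed no other call of a member against scr. Counts of genes called depended on it (main counts were 0 to 2). With limma and the block they became 123 in SP, 47 in 3p, 391 in 5p, 436 in SATS, 537 in 5p against 3p and 34 in all knockdowns. edgeR with the block gave 66 in SP over 3 sets, 134 in SP, 50 in 3p, 397 in 5p, 550 in SATS, 529 in 5p against 3p and 34 in all knockdowns, and DESeq2 with the block gave 50, 217, 143, 512, 849, 595 and 279 in the same order. TMM scaling with the block gave 123, 48, 424, 549, 559 and 33 from SP to all knockdowns, and scaling to reads outside *Rn45s* with the block gave 155, 54, 414, 440, 561 and 36. Untreated and luciferase libraries added to scr gave 4 in SP, 2 in 3p and 27 in 5p, and with the block 387, 219, 1119 and 1785 in SP, 3p, 5p and SATS. SP 1a alone for set 1 gave 1 in SP over 3 sets.

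The following estimates, none called in the fit without the block, turned direction, and the cause was not tested. *Pou5f1* in 5p against SP (-0.0036) turned to 0.0011 with edgeR and 0.019 with scaling to reads outside *Rn45s*, block or not. *Sox2* in SP (0.0046) turned to -0.0055 with edgeR and the block and -0.00489 with both other controls added to scr, block or not. *Nanog* in SATS (-0.00034) turned to 0.0022 with edgeR and the block, 0.0061 with DESeq2 and the block, 0.0103 with TMM scaling, block or not, and 0.0073 with both other controls added to scr, block or not. *Pou5f1* in SATS (0.024) turned to -0.00648 with scaling to reads outside *Rn45s*, block or not, and -0.0024 with both other controls added to scr, block or not. 

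The following ranges are over fits with 1 library (or, over 3 sets, 1 set) left out, with and without the block. *Sox2* ranged from -0.27 to 0.0046 in SP over 3 sets, from -0.24 to 0.25 in SP, from -0.13 to 0.26 in SATS, from -0.39 to 0.19 in 3p against SP, from 0.045 to 0.63 in 5p against 3p, from -0.18 to 0.30 in SATS against SP, from -0.13 to 0.45 in SATS against 3p, from -0.38 to 0.20 in 3p, from -0.0031 to 0.48 in 5p against SP, from -0.37 to 0.015 in SATS against 5p and from -0.016 to 0.11 in all knockdowns. The count of genes called ranged from 0 to 509 in SP over 3 sets, from 1 to 528 in 5p, from 1 to 192 in SP, from 1 to 72 in 3p, from 0 to 722 in SATS, from 0 to 650 in 5p against 3p and from 0 to 59 in all knockdowns. *Nanog* ranged from -0.76 to -0.34 in SP over 3 sets, from -0.72 to 0.039 in SP, from -0.61 to 0.15 in 3p, from -0.45 to 0.31 in 5p, from -0.38 to 0.38 in SATS, from -0.22 to 0.44 in 3p against SP, from -0.17 to 0.49 in 5p against 3p, from -0.12 to 0.26 in SATS against 5p, from -0.024 to 0.56 in 5p against SP, from 0.047 to 0.64 in SATS against SP and from -0.10 to 0.56 in SATS against 3p. *Sall4* ranged from -0.0297 to 0.13 in 5p and from -0.15 to 0.012 in SP. *Pou5f1* ranged from -0.11 to 0.16 in SATS, from -0.13 to 0.12 in 5p against SP, from -0.20 to 0.13 in 5p against 3p, from -0.13 to 0.19 in 3p against SP, from -0.21 to 0.049 in 5p, from -0.033 to 0.24 in SATS against 5p, from -0.20 to 0.053 in SP, from -0.21 to 0.12 in 3p, from -0.037 to 0.24 in SATS against SP and from -0.094 to 0.23 in SATS against 3p. Leaving out scr of set 2 without the block turned *Nanog* in SP of sets 2 and 3 to 0.039. With set 1 left out *Nanog* in SP was called with the block, in a fit that called 509 genes. Over 13 in place of 10 ratios, 1 of 3 genes most like *Pou5f1* and *Nanog* were shared and 0 for *Sox2* and *Sall4*. TMM and *Rn45s* scaling moved the median of all genes by at most 0.058 on the log2 scale. Depth limits set 1 most.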
